A study of Mus musculus with 12 samples.

Results

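The FOS, JUN and EGR immediate early genes were described here across the 4 groups of an array experiment on mouse glioma stem cells. The 10 genes are Fos, Fosb, Fosl1, Fosl2, Jun, Junb, Jund, Egr1, Egr2 and Egr3, out of 19505 genes with a symbol on the array. They were found by the gene symbol in the annotation of the platform, which placed them on 12 of 22206 probe sets, a probe set being a group of short oligonucleotides that reports the transcripts of a gene. Egr3 had 3 probe sets, of which the one with the highest mean signal was used, and each other gene had 1.

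GSC-H cells are stem-like cells recovered from mouse brain tumors at a late stage. The tumors had been started with neural stem/progenitor cells that lacked Ink4a/Arf, into which H-RasV12 had been introduced under hygromycin selection. All 4 groups were cultures of these cells and therefore shared the loss of Ink4a/Arf and the active H-Ras. The cells were exposed for 24 h to PBS in 21% O2 (Nx P), to 3 mM doranidazole in 21% O2 (Nx D), to PBS in 1% O2 (Hx P) or to 3 mM doranidazole in 1% O2 (Hx D), with 3 Clariom S Mouse arrays in each group. Doranidazole belongs to the 2-nitroimidazoles, compounds that sensitize hypoxic cells to radiation. The oxygen level of normoxia is that of the sample labels. The 3 samples of a group are said to be biologically independent but come from 1 experiment with a single cell line, so that p-values refer only to the spread between these samples.

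Immediate early genes are transcribed within minutes of a signal without the need for new protein, and in most cells their transcripts are short-lived. FOS and JUN proteins pair through leucine zippers to form the transcription factor AP-1, which binds the TRE and CRE elements of DNA, whereas EGR proteins are zinc finger factors that bind GC-rich sites. RAS signaling through the MAP kinase ERK is a classical inducer of these genes, and kinases activated by stress (JNK and p38) act on JUN and on ternary complex factors. Serum response factor, which binds the CArG box, and CREB, which binds the CRE, are known to act at their promoters. Transcripts of several of these genes carry AU-rich elements through which proteins such as ZFP36 promote their decay.

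Promoter sequence is shown for 4 of the members, 3 that rose with doranidazole in hypoxia (Fos, Junb and Egr2) and the one that fell (Jun). The windows are those of RefSeq for GRCm38.p6, run 5′ to 3′ along the strand of the gene from 250 bases before the start site, and capitals mark a match to TGACG (the first letters of the CRE), TGAGTCA (the TRE), GCGNGGGCG (an EGR site) or the CArG box on either strand.
Fos, chr12:85473640-85473939, plus strand: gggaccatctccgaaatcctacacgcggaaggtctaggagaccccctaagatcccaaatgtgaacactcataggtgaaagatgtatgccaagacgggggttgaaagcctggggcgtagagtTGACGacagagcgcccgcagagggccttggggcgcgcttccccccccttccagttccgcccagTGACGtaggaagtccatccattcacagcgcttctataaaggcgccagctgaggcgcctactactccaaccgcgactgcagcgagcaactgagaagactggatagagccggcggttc
Junb, chr8:84978699-84978998, minus strand: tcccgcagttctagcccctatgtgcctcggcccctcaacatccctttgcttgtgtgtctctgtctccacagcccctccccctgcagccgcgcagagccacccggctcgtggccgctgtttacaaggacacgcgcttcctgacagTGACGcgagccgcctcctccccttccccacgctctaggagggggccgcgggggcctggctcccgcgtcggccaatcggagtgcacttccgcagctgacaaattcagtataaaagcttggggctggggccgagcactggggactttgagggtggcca
Egr2, chr10:67537619-67537918, plus strand: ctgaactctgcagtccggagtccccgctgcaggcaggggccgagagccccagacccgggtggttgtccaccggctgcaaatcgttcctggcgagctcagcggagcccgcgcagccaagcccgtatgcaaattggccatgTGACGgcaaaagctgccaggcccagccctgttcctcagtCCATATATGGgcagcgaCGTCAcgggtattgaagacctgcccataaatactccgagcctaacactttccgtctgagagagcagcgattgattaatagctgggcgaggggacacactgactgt
Jun, chr4:95052173-95052472, minus strand: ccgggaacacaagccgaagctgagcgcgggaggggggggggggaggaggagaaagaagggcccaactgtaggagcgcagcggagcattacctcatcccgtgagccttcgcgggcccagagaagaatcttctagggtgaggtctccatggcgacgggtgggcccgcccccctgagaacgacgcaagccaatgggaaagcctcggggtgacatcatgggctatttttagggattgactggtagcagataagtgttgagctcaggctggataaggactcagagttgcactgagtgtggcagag
With the start site counted as 0, TGACG began at -129 and -66 in the Fos window and at -106 in the Junb window. The Egr2 window held a CArG box at -72, between TGACG at -111 on the plus strand and its reverse complement at -55. The Jun window held no exact match to any of the 4 motifs, and variants of their letters were not searched. Windows of 7 members were searched (the others being Fosb, Fosl2 and Jund), with 5 overlapping or neighboring windows for Egr2. No window was searched for Fosl1, Egr1 or Egr3, and the search left out all windows on the chromosome that carries Egr1. TGACG and an EGR site were found at -60 and -50 in the window of Fosb, an EGR site was found at -79 in that of Fosl2, and that of Jund held no match. Over the 32851 windows searched for this, TGACG was present in 20.8%, the EGR site in 5.55%, the TRE in 5.2% and the CArG box in 1.63%. Such a match is a description of the letters and does not show that a factor binds there, and windows without a match cover only these 300 bases.

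The deposited values were log2 signals, and all levels below are on that scale unless a fold is given. Values for different genes come from different probes and were not set against each other. The file gave no detection p-value. The median signal of the arrays lay between 4.65 and 4.88, and the spread of signals over probe sets (SD) was 3.51 to 3.67 on the Hx D arrays and 3.72 to 3.81 on the other arrays. Of the stem cell markers, Nes and Cd44 were bright in every group (group means of 12.8 to 13.8 and 15.7 to 16.5), Prom1 was dim (3.09 to 3.53), and Sox2 fell by 3.50 with doranidazole in hypoxia, as did Olig2 by 2.08 and Msi1 by 1.44. Among markers of other cell types, 1 of 4 endothelial genes rose in that comparison (Pecam1, by 1.28), and the mean of that list was 3.61 to 4.09 on the Hx D arrays and 3.13 to 3.53 elsewhere. Among microglia and macrophage markers 1 of 6 rose (Itgam, by 0.88), with list means of 3.23 to 3.37 on the Hx D arrays and 2.97 to 3.20 elsewhere. Of 4 fibroblast and pericyte markers, Col1a1 rose by 0.80 and Pdgfrb fell by 1.83 (list means of 3.97 to 4.05 against 3.89 to 4.45 elsewhere), and of 4 astrocyte markers Aqp4 fell by 2.36 (3.67 to 3.91 against 4.01 to 4.51). No neuron or oligodendrocyte marker was called. The part of the narrower spread and of these markers in the results below was not tested. In RNA from a whole culture, a change in the number of cells that express a gene and a change in its RNA per cell cannot be told apart.

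Doranidazole in hypoxia was accompanied by a change of 8 of the 10 genes. Of these, 7 rose (Fos, Fosb, Fosl1, Junb, Jund, Egr1 and Egr2), by 2.40-fold (Jund) to 34.9-fold (Junb), and Jun alone fell, to a level 2.97-fold lower. Over the whole array, 12.6% of probe sets were called higher and 15.1% lower in this comparison by limma at an adjusted p under 0.05. The same 7 genes were those whose Hx D arrays all lay above the Hx P arrays, as 20.7% of all probe sets did, and Jun was the 1 gene with all Hx D arrays below, as 18.1% of all probe sets were. The median log2 change was 2.60 over the 10 genes and 0.09 over all probe sets. The call for each of the 8 genes was kept under every alternative scaling, filter, model and left-out array that was tried.

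**Figure D1:**
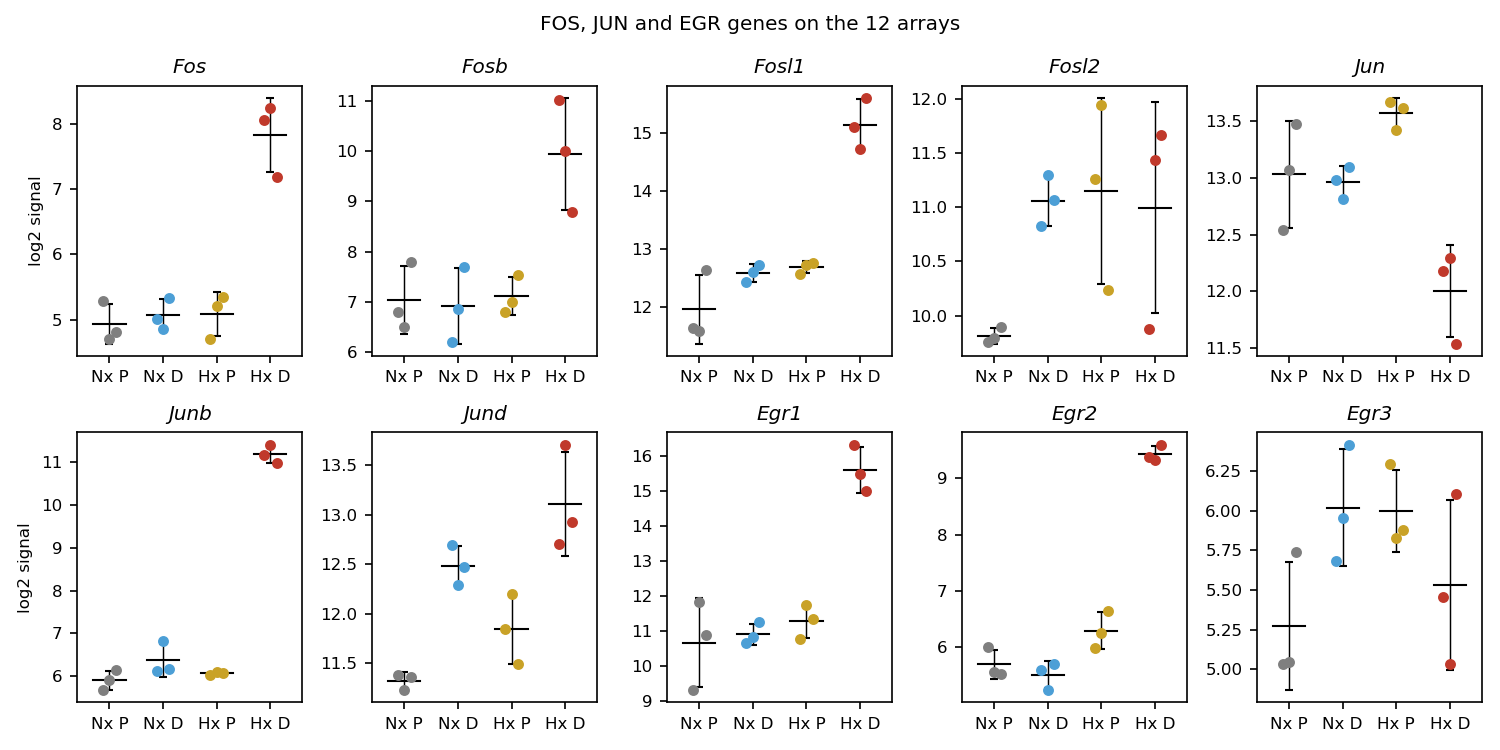
Log2 signal of the 10 genes on the 12 arrays, 1 panel per gene with its own vertical axis. Points are single arrays (n = 3 per group), long bars group means and error bars SD. The 3 Hx D arrays stand clear above the other 9 arrays for Fos, Fosb, Fosl1, Junb, Egr1 and Egr2 and clear below them for Jun.

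Fos is the founding member of the FOS proteins, which cannot pair with themselves and need a partner such as JUN to bind DNA. Its signal was 5.28, 4.71 and 4.82 on the Nx P arrays, 5.01, 4.87 and 5.34 on the Nx D arrays, 4.70, 5.21 and 5.34 on the Hx P arrays, and 8.05, 8.24 and 7.18 on the Hx D arrays. The Nx P, Nx D and Hx P groups overlapped one another, and the lowest Hx D array lay 1.84 above the highest Hx P array. In Nx P, Nx D and Hx P the signal lay near the array medians (4.65 to 4.88) and was not shown to be above background. The gene was 6.68-fold higher with doranidazole in hypoxia (log2 change 2.74, SE 0.28, limma adjusted p = 1.46e-05), whereas the change in normoxia was 0.13 (95% confidence interval -0.48 to 0.75, adjusted p = 0.941).

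Fosb encodes a FOS protein that is best known from stimulated neurons. It read 6.80, 6.50 and 7.79 on the Nx P arrays, 6.19, 6.86 and 7.69 on the Nx D arrays, 6.80, 7.00 and 7.53 on the Hx P arrays, and 11.03, 10.00 and 8.80 on the Hx D arrays. The Hx D arrays spanned 2.23 units, the third being the lowest of them for both Fos and Fosb, yet all 3 lay above the other groups. The increase in hypoxia was 7.13-fold (log2 change 2.83, SE 0.52, limma adjusted p = 0.00131), and ranged from 2.29 without the first Hx D array to 3.41 without the third. The change in normoxia was -0.11 (interval -1.24 to 1.02), and this wide interval does not exclude a change of either direction.

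Fosl1 encodes FRA-1, a FOS protein without the strong activation domain of FOS that is often abundant in cells with active RAS. Its signal was 11.64, 11.59 and 12.64 on the Nx P arrays, 12.43, 12.60 and 12.73 on the Nx D arrays, 12.57, 12.73 and 12.76 on the Hx P arrays, and 15.10, 14.73 and 15.60 on the Hx D arrays. The third Nx P array resembled the Nx D and Hx P arrays, whereas the other 2 Nx P arrays lay below all other arrays. With doranidazole in hypoxia the gene was 5.49-fold higher (log2 change 2.46, SE 0.28, limma adjusted p = 3.31e-05). In normoxia it differed by 0.63 (interval 0.02 to 1.24, limma adjusted p = 0.366).

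Fosl2, which encodes the related FRA-2, followed another pattern. Its signal was 9.76, 9.79 and 9.90 on the Nx P arrays, 10.82, 11.30 and 11.06 on the Nx D arrays, 11.26, 11.94 and 10.24 on the Hx P arrays, and 9.88, 11.43 and 11.67 on the Hx D arrays. The Nx P arrays were the tightest group, with all Nx D and all Hx P arrays above them, whereas the Hx P and Hx D arrays spanned 1.70 and 1.79 units and overlapped. The change with doranidazole was 1.25 in normoxia (SE 0.45, limma adjusted p = 0.226) and -0.15 in hypoxia (interval -1.13 to 0.82, adjusted p = 0.837). Neither passed, and the direction in hypoxia depended on the setting, the value being 0.10 after quantile normalization, 0.073 after cyclic loess, 0.40 without the first Hx D array and 0.24 without the second Hx P array. The normoxic change passed in a fit over the Nx P and Nx D arrays alone (limma adjusted p = 0.00861) and with array weights (1.19, adjusted p = 0.0461).

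Jun encodes the main JUN protein, which can pair with itself or with any FOS protein and is a substrate of JNK. The signal was 12.54, 13.07 and 13.48 on the Nx P arrays, 12.98, 12.81 and 13.09 on the Nx D arrays, 13.67, 13.43 and 13.62 on the Hx P arrays, and 12.18, 12.29 and 11.54 on the Hx D arrays. Every Hx D array lay below all other arrays, the opposite of Fos, Fosb, Fosl1, Junb, Egr1 and Egr2. Jun fell by 1.57 with doranidazole in hypoxia (SE 0.25, limma adjusted p = 0.000466) and changed by -0.07 in normoxia (interval -0.61 to 0.48, adjusted p = 0.968).

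Junb encodes a JUN protein that activates some AP-1 sites less than JUN does and can antagonize it. It read 5.67, 5.90 and 6.13 on the Nx P arrays, 6.12, 6.82 and 6.16 on the Nx D arrays, 6.03, 6.09 and 6.08 on the Hx P arrays, and 11.17, 11.41 and 10.99 on the Hx D arrays. The 9 arrays of the other groups lay between 5.67 and 6.82, and the gap from the highest Hx P to the lowest Hx D array was 4.90. The increase in hypoxia was 34.9-fold (log2 change 5.12, SE 0.21, limma adjusted p = 2.17e-08), the largest among the 10 genes, and the normoxic change of 0.47 did not pass (interval 0.00 to 0.93, adjusted p = 0.386).

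Jund, the JUN family member with the steadiest expression in most cells, was the only one of the 10 genes called in normoxia. The signal was 11.39, 11.23 and 11.36 on the Nx P arrays, 12.70, 12.29 and 12.47 on the Nx D arrays, 11.85, 12.20 and 11.49 on the Hx P arrays, and 12.70, 13.71 and 12.92 on the Hx D arrays. The 4 groups were stacked without overlap from Nx P through Hx P and Nx D to Hx D, but by narrow gaps between the oxygen levels. Hx D cleared Nx D by 0.0087 and Hx P cleared Nx P by 0.10, and neither difference was called (limma adjusted p = 0.0862 and 0.412). Doranidazole was associated with a rise of 1.16 in normoxia (SE 0.26, 2.24-fold, limma adjusted p = 0.0451) and of 1.27 in hypoxia (SE 0.26, 2.40-fold, adjusted p = 0.00259). The rises differed by 0.10 between the oxygen levels (adjusted p = 0.887), with an interval for the difference of -0.69 to 0.89. The normoxic call lay at the threshold: its adjusted p was 0.0579 after quantile normalization, 0.0521 after setting the array medians equal and 0.0567 after cyclic loess, and it reached 0.196 without the first Nx D array. It was lost when any Nx P or Nx D array or the first Hx P array was left out (adjusted p of 0.0746 to 0.196), while the value stayed between 1.06 and 1.26.

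Egr1, the most studied EGR factor and an early target of ERK, read 9.32, 11.83 and 10.90 on the Nx P arrays, 10.66, 10.83 and 11.25 on the Nx D arrays, 10.77, 11.75 and 11.35 on the Hx P arrays, and 16.33, 15.50 and 15.02 on the Hx D arrays. The Nx P arrays spanned 2.50 units, wider than any other group of this gene, and covered the range of the Nx D and Hx P arrays. In hypoxia the gene was 20.0-fold higher with doranidazole (log2 change 4.32, SE 0.52, limma adjusted p = 4.88e-05). The change in normoxia was 0.23 (interval -0.89 to 1.36), and -0.44 without the first Nx P array.

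Egr2, known for its role in myelination by Schwann cells and in hindbrain patterning, read 6.00, 5.56 and 5.53 on the Nx P arrays, 5.59, 5.24 and 5.70 on the Nx D arrays, 5.98, 6.26 and 6.64 on the Hx P arrays, and 9.39, 9.32 and 9.59 on the Hx D arrays. The Hx D arrays spanned 0.27 units, and the other 9 arrays lay between 5.24 and 6.64. The increase in hypoxia was 8.83-fold (log2 change 3.14, SE 0.21, limma adjusted p = 5.28e-07), against -0.19 in normoxia (interval -0.65 to 0.28, adjusted p = 0.854).

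The 3 probe sets of Egr3, whose product is induced together with EGR1 in many cells, disagreed. On the probe set used (TSUnmapped00000046.mm.2) the signal was 5.04, 5.04 and 5.74 on the Nx P arrays, 5.68, 5.96 and 6.42 on the Nx D arrays, 6.30, 5.83 and 5.88 on the Hx P arrays, and 5.46, 5.04 and 6.10 on the Hx D arrays. Here the Hx D arrays overlapped the Hx P arrays, and the change with doranidazole in hypoxia was -0.47 (interval -1.11 to 0.17, limma adjusted p = 0.269). A second probe set (TSUnmapped00000048.mm.2) read 5.00, 4.97 and 5.08 on the Hx P arrays and 6.86, 5.70 and 5.30 on the Hx D arrays, without overlap, and rose by 0.94 (adjusted p = 0.0449), with the first Hx D array far above the other 2. The third (TC1400000990.mm.2) read 3.65, 3.70 and 3.83 on the Hx P arrays and 4.31, 3.69 and 3.58 on the Hx D arrays, a change of 0.14 (adjusted p = 0.671). No direction can therefore be given for Egr3.

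**Figure D2:**
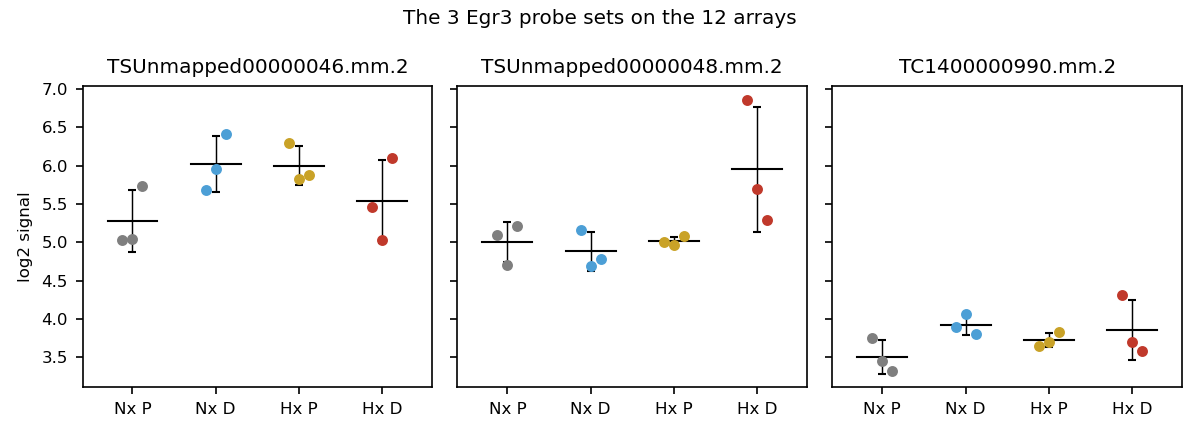
Log2 signal of the 3 Egr3 probe sets on the 12 arrays, on a common vertical axis. Points are single arrays (n = 3 per group), long bars group means and error bars SD. The Hx D arrays overlap the Hx P arrays on the left and right probe sets and lie above them on the middle one.

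In normoxia Jund was the 1 gene called higher, against 1.29% of all probe sets, and none was called lower, against 0.293%. At an unadjusted p under 0.05, 5 of the 10 were higher (Fosl1, Fosl2, Junb, Jund and Egr3), against 7.12% of all probe sets. Fosl2 and Jund were the 2 genes whose Nx D arrays all lay above the Nx P arrays, as held for 11.3% of all probe sets, and no gene had them all below, as held for 10.5%. The median change was 0.35 over the 10 genes and -0.01 over all probe sets. Same-numbered Nx P and Nx D arrays deviated together, and with the replicate block the fit over all arrays still called 1 gene, whereas a replicate block over the normoxia arrays alone, an analysis added after the data had been seen, called 3 higher, against 4.17% of all probe sets in that fit (Fosl2, Jund and Egr3, limma adjusted p of 0.00533 and 0.0335 for the first and last).

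**Figure D3:**
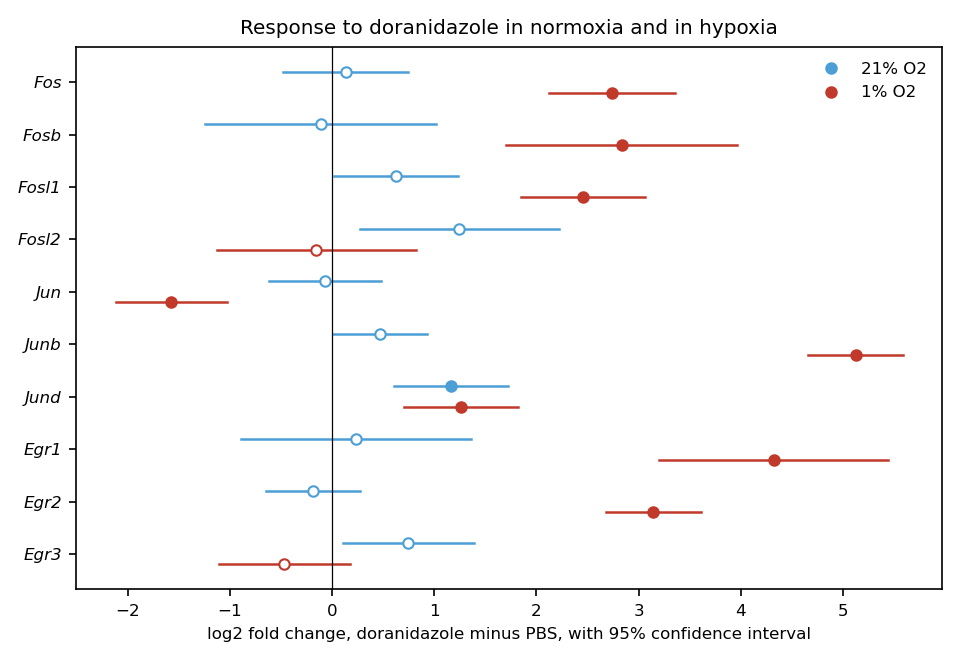
Log2 fold change of doranidazole against PBS in 21% O2 (blue) and in 1% O2 (red) for each gene, with 95% confidence intervals from the fit over 12 arrays. Filled points passed an adjusted p of 0.05. The intervals at the 2 oxygen levels are apart for Fos, Fosb, Fosl1, Jun, Junb, Egr1 and Egr2 and nearly coincide for Jund.

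The question whether the response to the drug depended on oxygen was addressed by the difference between both responses, hypoxia minus normoxia. This difference was called higher for 6 genes, against 5.02% of all probe sets, and lower for 1, against 8.5%. Junb differed most, by 4.66 on the log2 scale (SE 0.30, limma adjusted p = 2.92e-06), followed by Egr1 with 4.09 (adjusted p = 0.00261), Egr2 with 3.33 (2.48e-05), Fosb with 2.94 (0.0187), Fos with 2.61 (0.000943) and Fosl1 with 1.83 (0.00843). The value for Jun was -1.50 (adjusted p = 0.0141). Fosl2 and Egr3 had values of -1.40 (adjusted p = 0.176) and -1.22 (0.0763) that did not pass, and Egr3 passed with the replicate block (adjusted p = 0.0365), with array weights (0.0350), without the third Nx P array (0.0448) and without the third Hx D array (0.0175). The call for Fosb was lost without the first Nx D array (0.0535) and without the first Hx P array (0.0506). For Egr1 the difference was 4.77 without the first Nx P array and 3.52 without the second. Both responses and their difference are drawn from the same 12 arrays.

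Oxygen alone was compared on the PBS arrays. None of the 10 genes was called between Hx P and Nx P by limma, against 1.46% of probe sets higher and 0.518% lower, although 4 were higher at an unadjusted p under 0.05 (Fosl1, Fosl2, Egr2 and Egr3), against 6.24% of all probe sets. All 10 estimates were above 0, from 0.08 (Fosb) to 1.33 (Fosl2, adjusted p = 0.165), with a median of 0.57 against -0.01 over all probe sets. The Hx P arrays lay wholly above the Nx P arrays for Fosl2, Jund and Egr3, as for 9.29% of all probe sets, and for no gene wholly below, as for 9.77%. Fosl2 passed without the third Hx P array, at 1.79 (limma adjusted p = 0.0266), and with array weights, at 1.44 (0.0115), where Egr3 passed as well (0.87, 0.0435). The direction for Fosb was negative without the first or second Nx P array or without the third Hx P array (-0.04, -0.19 and -0.13), and that for Egr1 without the first Nx P array (-0.07).

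Under doranidazole, the same 6 genes were higher in hypoxia than in normoxia, against 13.5% of all probe sets, and Jun was lower, against 16.5%. The changes were 2.75 for Fos, 3.03 for Fosb, 2.56 for Fosl1, 4.82 for Junb, 4.70 for Egr1 and 3.92 for Egr2. Jun was lower by a log2 change of -0.96 (limma adjusted p = 0.0119), and after cyclic loess by -0.67 (adjusted p = 0.0905). Jund was not called at 0.62 (adjusted p = 0.0862) but passed after quantile normalization (0.83, adjusted p = 0.0409), after cyclic loess (0.93, adjusted p = 0.0234) and without the first Hx D array (0.83, adjusted p = 0.0399), and Fosl2 and Egr3 were not called. This comparison shares the Hx D arrays with the hypoxic drug comparison and is not separate evidence of the same changes.

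Ranked by group mean, Nx P, Nx D and Hx P overlapped with their neighbors for Fos, Fosb, Fosl1, Egr1 and Egr2, and the step between neighbors that was clear of overlap was that to Hx D. For Egr2 the Nx D arrays (5.24 to 5.70) also lay below the Hx P arrays (5.98 to 6.64), with Nx P between them. The order for Junb was Nx P, Hx P, Nx D and Hx D, of which Nx P overlapped with both Hx P and Nx D. The lowest group of Jun was Hx D, with no overlap between it and Nx D, and the upper 3 groups overlapped with their neighbors. For Fosl2 and Egr3 each group overlapped with the next.

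The 30 other immediate early genes of a list were read in the same way. The list was drawn up from general knowledge but with earlier results of these data known, so it is not independent of them. In hypoxia 17 of 30 rose with doranidazole and 2 fell, against 12.6% and 15.1% of all probe sets, with a median change of 1.23. In normoxia 1 rose and none fell, against 1.29% and 0.293% of all probe sets, with a median of 0.05. At an unadjusted p under 0.05, 3 were higher and 2 lower in normoxia, against 7.12% of all probe sets higher and 2841 of 22206 in either direction. Zfp36, whose protein promotes decay of AU-rich transcripts, rose 32.2-fold (log2 change 5.01, limma adjusted p = 1.53e-06). Arc, a neuronal activity gene, rose 15.0-fold (3.91, adjusted p = 4.67e-07), and Nr4a2, an orphan nuclear receptor, rose 7.41-fold (2.89, adjusted p = 1.43e-06). Btg2, an antiproliferative p53 target, was the gene called in normoxia (2.88, SE 0.38, adjusted p = 0.00419), and its change in hypoxia was 3.80. The 2 that fell, named after their values had been seen, were Homer1 (-1.78), a scaffold protein of synapses, and Sik1 (-1.73), a kinase that restrains CREB coactivators. The difference between the oxygen levels was called higher for 11 of the 30 and lower for 2, against 5.02% and 8.5% of all probe sets. Egr4 and Myc were also picked out after their values had been seen. Egr4, the remaining EGR gene, read a mean of 4.24 on the Hx P and 4.32 on the Hx D arrays (0.08, adjusted p = 0.786), and Myc, a RAS-responsive growth gene, 15.29 and 14.75 (-0.53, adjusted p = 0.218).

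**Figure D4:**
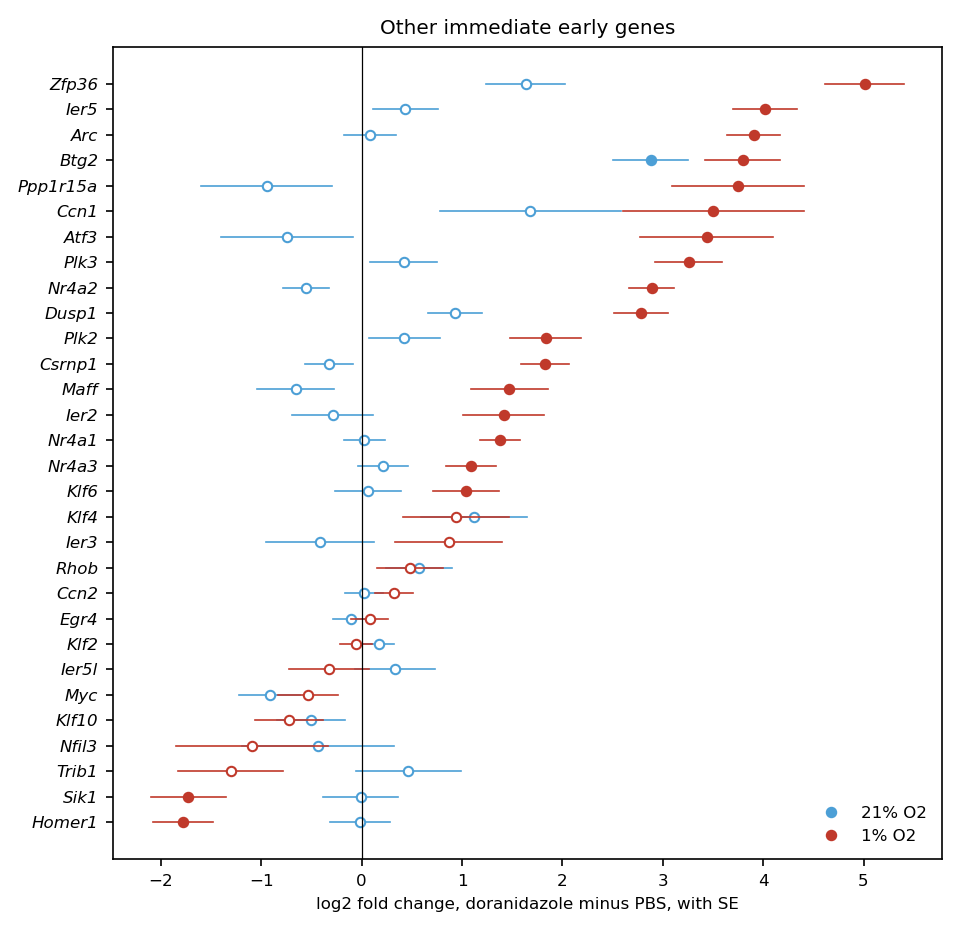
Log2 fold change of doranidazole against PBS for 30 other immediate early genes in 21% O2 (blue) and 1% O2 (red), ordered by the value in 1% O2. Lines are SE from the fit over 12 arrays (n = 3 per group) and filled points passed an adjusted p of 0.05, which 17 genes did upward in hypoxia and 1 in normoxia.

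Of 11 measured leucine zipper partners and antagonists of FOS and JUN, 4 rose in hypoxia and none fell (median 0.31), against 12.6% and 15.1% of all probe sets. Mafk, a small Maf protein without an activation domain, rose 21.0-fold (log2 change 4.39, SE 0.26, limma adjusted p = 1.81e-07), its relative Mafg rose 3.00-fold (adjusted p = 0.00113) and Atf2, a CRE-binding partner of JUN, rose 1.77-fold (adjusted p = 0.0114). Maff, which is also among the 30 genes above and was not named by the rule for named genes, was the fourth. Mafk and Arc read means of 4.30 and 4.24 on the Hx P arrays, below the median signal of every array, so that their folds rest on dim values not shown to be above background. Maf had the smallest p of the list in normoxia and did not pass (1.56, adjusted p = 0.100).

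Of 11 genes for serum response factor, its cofactors and CREB, 2 rose and 2 fell in hypoxia, near the 12.6% and 15.1% of all probe sets. Elk3, a ternary complex factor of serum response factor, fell by 2.88 (limma adjusted p = 1.09e-06), Mrtfa, an actin-regulated coactivator, fell by 1.57 (adjusted p = 0.00864) and Crtc2, a CREB coactivator, rose by 0.54 (adjusted p = 0.0300). Mrtfb had the smallest p of this list in normoxia and did not pass (0.96, limma adjusted p = 0.216). Of 16 kinases of the MAP kinase pathways, 4 rose and 6 fell (median -0.28). These include Rps6ka5 and Rps6ka3, which MAP kinases activate and which are among those that rose (0.82) and fell (-0.77). Map2k6, a kinase of p38, fell by 5.73 (adjusted p = 6.97e-07), Mapk8, which encodes JNK1, fell by 1.61 (adjusted p = 0.000247), and Map2k3, another kinase of p38, rose by 2.49 (adjusted p = 7.26e-06). Mapk10, the neuronal JNK, had a change of 2.79 in normoxia that did not pass (adjusted p = 0.0855), and its change of 3.38 in hypoxia did (adjusted p = 0.00378). In normoxia none of these 27 genes was called by limma. At an unadjusted p under 0.05, 2 were higher and 2 lower, near the 7.12% of all probe sets higher and the 2841 of 22206 in either direction.

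Of 10 dual-specificity phosphatases, which inactivate MAP kinases, 4 rose and 1 fell in hypoxia, against 12.6% and 15.1% of all probe sets. Dusp1 rose by 2.78 (limma adjusted p = 8.36e-06) and Dusp2 by 0.96 (adjusted p = 0.00198), both being nuclear phosphatases, whereas Dusp6, the cytoplasmic ERK phosphatase, fell by 3.03 (adjusted p = 1.11e-06). Dusp2 read means of 2.48 on the Hx P and 3.44 on the Hx D arrays, below the median signal of every array. Its change therefore rests on dim values not shown to be above background. In normoxia none passed by limma, the smallest p being that of Dusp4 (0.84, adjusted p = 0.0876). At an unadjusted p under 0.05, 3 were higher and 0 lower there, against 7.12% of all probe sets higher and 2841 of 22206 in either direction. Dusp1 and Zfp36 are each members of 2 of the lists.

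Of 10 corepressors of EGR proteins and reported EGR1 targets, 1 rose and 4 fell in hypoxia with a median of -0.66, against 12.6% higher and 15.1% lower over all probe sets. The 1 that rose was Thbs1, named after its values had been seen. It read means of 3.15 on the Hx P and 3.77 on the Hx D arrays, below the median signal of every array and not shown to be above background. Those that fell included Nab2 (-2.22, limma adjusted p = 0.000850), a corepressor that is itself induced by EGR1, F3 (-2.50, adjusted p = 0.00110), the tissue factor of coagulation, and Ptges (-1.41, adjusted p = 0.00500), a prostaglandin E synthase. Of 16 reported AP-1 targets, 2 rose and 4 fell (median -0.05), of which the rising share is near that over all probe sets. Mmp3, Mmp9, Mmp10, Mmp13, Il6 and Fasl had group means of 2.60 to 3.75, below the median signal of every array. These are dim values not shown to be above background, and they enter the share and the median. Plau, the urokinase protease, fell by 4.80 (adjusted p = 1.71e-05) and Hmga2, a chromatin protein of stem and tumor cells, fell by 2.09 (adjusted p = 0.00211), while Plaur, the receptor of urokinase, rose by 3.21 (adjusted p = 3.19e-05). Lif and Tgfb1 had the smallest p of the respective lists in normoxia and did not pass there (1.87, adjusted p = 0.125, and 0.93, adjusted p = 0.133). No gene of either list was called by limma in normoxia. At an unadjusted p under 0.05, 3 genes of each list were higher there and 0 lower, against 7.12% of all probe sets higher and 2841 of 22206 in either direction. Of 8 proteins that bind AU-rich transcripts, 2 rose and 3 fell in hypoxia, with Zfp36l2 up by 1.89 (adjusted p = 1.03e-05) and Tia1, a translational repressor, down by a change of -2.11 (adjusted p = 2.20e-05). Zfp36 had the smallest p of this list in normoxia and did not pass there (1.63, limma adjusted p = 0.0641).

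The genes whose 12 values, after removal of each gene's mean, lay nearest to those of a member were sought among 19504 other genes, by the root mean square difference on the log2 scale. For Fos these were Trim69 (0.253), Ucp1 (0.316) and Pnp2 (0.324). For Jun they were Kif5c (0.247), Zfp777 (0.284) and Bloc1s1 (0.285). For Egr1 they were Mafk (0.590), Oser1 (0.595) and Arc (0.624). Among the members, Fos lay nearest to Fosb (0.521), Egr2 (0.535) and Fosl1 (0.565). This likeness is a description over 12 arrays that share 4 groups.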

How the data were processed

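The authors analyzed the Clariom S Mouse arrays with Transcriptome Analysis Console and deposited a log2 signal for each probe set on each of 12 arrays. The steps of summary and scaling are not given in the labels or methods. Both deposited tables held the same values (0 probe sets differed). Of 22206 probe sets, 19572 had 1 gene symbol and 2634 were unnamed here. Depth does not apply to arrays, and the 3 arrays per group limit the precision.

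Values were fitted without further scaling with limma 3.58.1 in R 4.3.3 over all 12 arrays with 4 group means, two-sided, with Benjamini-Hochberg adjustment over all probe sets and a threshold of 0.05. The fit was tested on simulated data. Named were all 10 members and, of each other list, the 3 genes with the smallest p for doranidazole in hypoxia and the 1 in normoxia. Members and lists were chosen with earlier results of these data known. The 8 other lists held 122 genes, of which 109 were measured. Deviations of same-numbered arrays from their group means correlated at 0.202, 0.329 and 0.326 between the normoxia groups, at -0.0202, -0.024 and -0.0466 between the hypoxia groups (replicates 1, 2 and 3) and at -0.0205, 0.264 and 0.356 between the PBS groups, so that every pair was over 0.1 in normoxia only and the numbers were taken as pairs there. Alternatives were quantile, median and cyclic loess scaling, a filter on dim probe sets (below the 30th percentile of mean signal), a trended robust prior, array weights, the replicate block, a single probe set for each gene, the compared groups on their own, the fold and p thresholds of the study (above 2 or below 0.5, unadjusted p under 0.05) and each array left out. Added after seeing the data were the block over the normoxia arrays alone and the other Egr3 probe sets. Promoter windows came from RefSeq (GRCm38.p6).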

Additional observations from a re-analysis of the deposited data

Results flagged for a closer look

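The response to doranidazole differed between hypoxia and normoxia for 7 of the 10 genes by a test of the difference itself, which set them apart for a closer look. Over all probe sets, the difference was called higher for 5.02% and lower for 8.5%. On the log2 scale, hypoxia minus normoxia, with limma adjusted p-values, the difference was 2.61 for Fos (SE 0.40, 0.000943), 2.94 for Fosb (SE 0.74, 0.0187), 1.83 for Fosl1 (SE 0.40, 0.00843), 4.66 for Junb (SE 0.30, 2.92e-06), 4.09 for Egr1 (SE 0.73, 0.00261), 3.33 for Egr2 (SE 0.30, 2.48e-05) and -1.50 for Jun (SE 0.36, 0.0141). Each of the 3 Hx D arrays lay on the same side of all Hx P arrays for these genes. The same arrays enter the difference by which the genes were picked, so this is not separate evidence. Of all probe sets, 20.7% had the Hx D arrays wholly above the Hx P arrays and 18.1% wholly below.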

How the results depend on the processing

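The 8 calls for doranidazole in hypoxia (Fos, Fosb, Fosl1, Jun, Junb, Jund, Egr1 and Egr2) kept their direction and side of the threshold under all alternatives run for that comparison. In normoxia the number of members called was 1, against 0 after quantile, median and cyclic loess scaling, 2 with array weights, with only the groups compared and at the thresholds of the study, and 3 with the replicate block over the normoxia arrays alone. It was 0 to 1 with an array left out. Between the PBS groups it was 0, against 2 with array weights, 1 at the thresholds of the study and 0 to 1 with an array left out. The replicate block over all arrays gave 1, 8, 8, 0 and 7 calls in the 5 comparisons, and beside that for Egr3 given above it changed no other call.

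Values that reversed came from Egr3 or did not pass before or after the reversal. Outside Egr3 they reached 0.49 (Fosl2) and -0.44 (Egr1). For Fosl2 with doranidazole in hypoxia the change was 0.10 after quantile and 0.073 after cyclic loess scaling, and between the oxygen levels under doranidazole it was 0.21 and 0.27, and 0.014 with array weights. With array weights Jun read 0.0090 in normoxia, and Fos and Fosb read -0.12 and -0.13 between the PBS groups. The difference of response for Jund was -0.0084 with medians set equal. With an array left out, normoxic changes lay between -0.00045 and 0.31 (Fos), -0.50 and 0.27 (Fosb), -0.31 and 0.15 (Jun) and -0.44 and 0.81 (Egr1). The hypoxic change of Fosl2 lay between -0.61 and 0.40 and its change between oxygen levels under doranidazole between -0.41 and 0.49. The difference for Jund lay between -0.19 and 0.31, and the changes between the PBS groups between -0.19 and 0.46 (Fosb) and -0.071 and 1.18 (Egr1). The third Egr3 probe set (TC1400000990.mm.2) gave 0.14 in hypoxia, and the second (TSUnmapped00000048.mm.2) gave -0.12 in normoxia, 0.94 in hypoxia, 1.06 for the difference and 1.07 between oxygen levels under doranidazole. The cause was not tested. Over all members and comparisons, 1003 values kept their side and direction, 14 gained and 13 lost a call, and 30 reversed.

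Setting the medians equal moved the median change of all probe sets in hypoxia from 0.09 to -0.03, and the calls there from 2798 higher and 3356 lower to 2051 and 3789. For the difference of response the calls were 1115 higher and 1888 lower, and 1432 and 1492 after quantile scaling. Between the oxygen levels under doranidazole they were 3002 and 3654, and 2061 and 4111 with medians set equal. With array weights the calls in normoxia were 877 higher and 509 lower, against 287 and 65. With 3 arrays per group and no detection p-value, changes of dim probe sets cannot be separated from background here.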
